A study of Mus musculus with 20 samples.

Results

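The genes described here are 10 vascular adhesion molecules, chemokines and cytokines of the mouse aorta: Vcam1, Icam1, Sele, Selp, Ccl2, Ccl7, Cx3cl1, Cxcl12, Il6 and Tnf. They were taken by name from the 18193 genes whose array probe sets carried a single gene symbol, and 19 probe sets represented them. Their RNA was measured on 20 Affymetrix Mouse Genome 430 2.0 arrays, each hybridized with RNA pooled from 8 aortas, so p-values below measure the spread between pools. Adult C57BL/6J mice received plain chow (n = 3 arrays) or chow with rosiglitazone, a drug that activates the nuclear receptor PPAR gamma, at 3 mg/kg/day for 2 days (n = 3) or 14 days (n = 3) or at 10 mg/kg/day for 2 days (n = 3) or 14 days (n = 2). A separate experiment compared mice with a dominant-negative P465L form of PPAR gamma, knocked into the gene's own locus (n = 3), with their wild-type littermates (n = 3), both on standard chow and without drug. The knock-in acts in every cell type that uses the locus, and no source used here gave the sex of the mice, their exact age or the strain of the knock-in colony.

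Leukocytes leave the blood in steps. The selectins P-selectin (Selp) and E-selectin (Sele) on activated endothelium catch passing cells, chemokines held on the vessel surface activate their integrins, and ICAM-1 (Icam1) and VCAM-1 (Vcam1) then hold them firmly. Tumour necrosis factor (Tnf) induces many of these genes in endothelium through the transcription factor NF-kB, and activators of PPAR gamma have been studied as inhibitors of that response.

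None of the 5 members bright enough to be tested changed with rosiglitazone or in P465L aortas at an adjusted p under 0.05. The signal of Icam1 averaged 3890 ± 80 (SD, n = 3) in chow controls, and each of the 17 other arrays lay below every chow array. This placing held for 0.424% of genes tested. Cxcl12 shared it in its brightest probe set, while a weaker Cxcl12 probe set ran the other way. Wild-type littermates, which received no drug, had an Icam1 signal of 2691 ± 132 (SD, n = 3), and Icam1 and the brightest Selp probe set both fell in littermates against chow controls. By its brightest probe set, Cx3cl1 ran from 358 to 596 in the 6 arrays of the knock-in experiment. All 14 arrays of the rosiglitazone experiment lay above, from 673 to 1034. This placing held for 1.91% of genes tested, and another Cx3cl1 probe set did not show it. Tnf, Il6, Sele, Ccl2 and Ccl7 gave dim signals that did not separate the groups at the threshold.

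A signal is the summary of a probe set's brightness on a linear scale after each array was scaled to the same trimmed mean of 1500. Signals of different probe sets are not comparable as levels, because probes differ in how well they hybridize. A gene was represented by its brightest probe set and was tested when the mean of log2(signal + 72) reached 8.73, the middle of all probe sets, which corresponds to a signal of 352. Of the 10 members, Vcam1, Icam1, Selp, Cx3cl1 and Cxcl12 passed, among 11081 genes tested, and the other 5 did not. Fold changes are on the log2(signal + 72) scale, which shrinks differences of dim genes. Adjusted p-values came from limma with Benjamini-Hochberg adjustment over all genes tested, and "called" means an adjusted p under 0.05. In whole aorta RNA, fewer cells of a type and less RNA per cell cannot be told apart.

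Promoter sequences are printed for Icam1 and Selp, the members called in 1 comparison described below, and for members that share a motif with them or contrast with them. RefSeq promoters on GRCm38.p6 were at hand for 7 of the 10 members, Icam1, Sele, Selp, Cx3cl1, Cxcl12, Il6 and Tnf, and the 250 bases before each start were searched on both strands. The letters GGANNTTCC, close to the site that NF-kB binds, were chosen after these promoters had been scanned. They occurred in 4 of the 7, namely Icam1, Sele, Il6 and Tnf, and in 3.586% of 32851 promoters of the same length. The first line gives the whole 250 bases of Icam1 at chr9:21015690-21015939 on the + strand, and the other 3 lines give shorter stretches around the match, which is in capitals. Those stretches are chr1:164048069-164048117 on the + strand for Sele, chr5:30013051-30013099 on the + strand for Il6 and chr17:35202191-35202239 on the - strand for Tnf.
Icam1: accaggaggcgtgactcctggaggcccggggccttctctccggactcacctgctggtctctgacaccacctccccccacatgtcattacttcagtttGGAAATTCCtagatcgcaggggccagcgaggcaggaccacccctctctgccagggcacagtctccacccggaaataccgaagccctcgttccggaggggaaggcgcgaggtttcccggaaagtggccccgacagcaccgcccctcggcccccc
Sele: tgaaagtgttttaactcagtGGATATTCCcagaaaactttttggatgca
Il6: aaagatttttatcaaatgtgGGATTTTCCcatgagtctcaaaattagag
Tnf: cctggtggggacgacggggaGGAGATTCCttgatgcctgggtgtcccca
The match lay 153 to 145 bases before the start in Icam1, 145 to 137 in Sele, 43 to 35 in Il6 and 212 to 204 in Tnf. The listed start of Sele lies inside the span given for the gene in the gene table, so it belongs to a shorter transcript.

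Selp and Cxcl12 held no such match in this window. The first line shows an AP-1-like match, TGANTCA, in Selp at chr1:164115104-164115153 on the + strand, and the second shows the GC boxes, GGGCGG on either strand, of Cxcl12 at chr6:117168435-117168534 on the + strand, both in capitals.
Selp: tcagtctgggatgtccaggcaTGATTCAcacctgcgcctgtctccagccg
Cxcl12: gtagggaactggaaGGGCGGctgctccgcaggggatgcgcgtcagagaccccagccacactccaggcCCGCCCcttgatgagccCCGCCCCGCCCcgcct
TGANTCA occurred in Sele, Selp and Il6 and in 6.749% of all promoters. GGGCGG occurred in Cxcl12, Cx3cl1, Icam1 and Tnf and in 32.742% of all promoters, and 2 of the Cxcl12 matches overlap by 1 base. A further Cxcl12 match, 187 to 182 bases before the start, lies outside the stretch printed. TATAAA was found in Sele, Cx3cl1 and Tnf and in 12.368% of all. The exact PPAR response element, a direct repeat spaced by 1 base, was found in 0 of the 7 and in 0.033% of all. These matches are descriptions of the letters in these windows and not of binding.

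Icam1, the immunoglobulin-family ligand of the leukocyte beta-2 integrins, lies on chromosome 9 from 21015940 to 21028814 (GRCm38) and had 1 probe set. Its signals were 3851, 3983 and 3837 in chow controls, given here and below in the order of the arrays' letters A, B and C. At 3 mg/kg/day they were 3745, 2953 and 3321 after 2 days and 2988, 2655 and 2889 after 14 days. At 10 mg/kg/day they were 3155, 3079 and 2934 after 2 days and 3144 and 2972 after 14 days. All 11 treated arrays therefore lay below the lowest chow array, with array A of the 3 mg/kg/day 2-day group closest to it. This separation was shared by 1.26% of all genes tested, and lying above all 17 other arrays, as the chow controls did here, by 0.424%.

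The average of the 4 rosiglitazone groups stood at a log2 fold change of -0.34 ± 0.08 (SE) against chow for Icam1, with a 95% interval from -0.51 to -0.16. Its adjusted p was 0.0833 in limma, and it ranked 91st of 11081 genes by p. The 4 group means were -0.22 and -0.44 at 3 mg/kg/day and -0.34 and -0.34 at 10 mg/kg/day, each after 2 and 14 days, with adjusted p from 0.137 to 0.562. These comparisons share the same 3 chow arrays, so they do not repeat each other independently. With arrays weighted by their quality the average had an adjusted p of 0.0188, past the threshold. Leaving out each of the 20 arrays in turn gave adjusted p from 0.0415 to 0.25, and 1 of the 20 fits, without array A of the 3 mg/kg/day 2-day group, called Icam1. The log2 difference between 10 and 3 mg/kg/day was -0.01 ± 0.08 (SE) for Icam1, and that between 14 and 2 days was -0.11 ± 0.08 (SE).

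The endothelial marker Pecam1, an adhesion molecule at endothelial junctions, moved the same way beside Icam1 in treated aortas. Its signal was 15342 to 18466 in chow controls and 8794 to 13073 over the 11 treated arrays, and it fell by 0.57 ± 0.11 (SE) in the average (adjusted p = 0.0209, limma). Without chow array A, B or C that call was lost, with adjusted p of 0.149, 0.0961 and 0.0736. Over all 10 endothelial markers listed, 4 were higher and 6 lower in the average, with a median log2 fold change of -0.07. Their summed signal ranged from 40635 to 49392 in chow controls and from 30989 to 44149 over the treated arrays, and these ranges overlap. Pecam1 is 1 of these markers and among the summed signals, so the sum carries its fall and is not a separate measure. No sum without Pecam1 was made. The part of endothelial RNA content in the values of Icam1 was not tested.

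**Figure D1:**
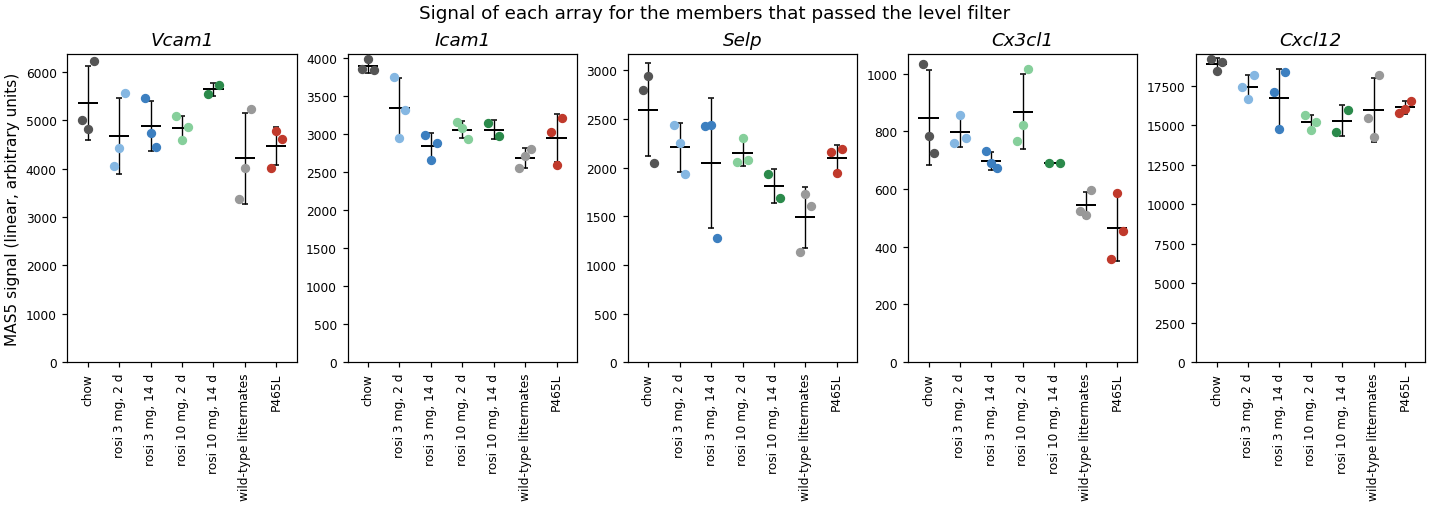
MAS5 signal (linear, arbitrary units) of each array for the 5 tested members, by group, with points for single arrays, a bar for the group mean and error bars of 1 SD (n = 2 for 10 mg/kg/day for 14 days and n = 3 otherwise). The 3 chow points of Icam1, from 3837 to 3983, sit above the points of every other group, and the 6 points of the knock-in experiment for Cx3cl1, from 358 to 596, sit below all others.

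Vcam1, the ligand of the integrin alpha-4 beta-1 and a known marker of inflamed endothelium, lies on chromosome 3 from 116110020 to 116129688. Its brightest probe set read 5001, 4814 and 6222 in chow controls. It read 4052, 4426 and 5564 at 3 mg/kg/day for 2 days and 5452, 4742 and 4444 for 14 days. At 10 mg/kg/day it read 5079, 4596 and 4853 after 2 days and 5542 and 5737 after 14 days. The treated and chow arrays overlapped throughout, and the average log2 fold change was -0.09 ± 0.12 (SE) with an interval from -0.33 to 0.15 (adjusted p = 0.788, limma). No treated group stood apart from chow in either direction.

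Selp, the P-selectin that endothelium and platelets store in granules, lies on chromosome 1 from 164115264 to 164150026. Chow controls had signals of 2794, 2937 and 2048. At 3 mg/kg/day the signals were 2435, 2251 and 1938 after 2 days and 2425, 2437 and 1273 after 14 days. At 10 mg/kg/day they were 2058, 2304 and 2082 after 2 days and 1937 and 1688 after 14 days. Chow array C, at 2048, lay inside the range of the treated arrays while the other 2 lay above it. The average for Selp was -0.33 ± 0.16 on the log2 scale (SE; adjusted p = 0.355, limma), and at 10 mg/kg/day for 14 days it was -0.49 ± 0.22 (SE; adjusted p = 0.371, limma).

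Cxcl12, the chemokine that retains CXCR4-bearing cells, lies on chromosome 6 from 117168535 to 117181368. Its brightest probe set read 19189.5, 18471 and 19011 in chow controls. It read 17464, 16667 and 18175 at 3 mg/kg/day for 2 days and 17114, 14749 and 18374 for 14 days. At 10 mg/kg/day it read 15649, 14713 and 15235 after 2 days and 14609 and 15988 after 14 days. As for Icam1, all 17 arrays outside the chow group lay below all 3 chow arrays, though the highest of them, 18374, came close to the lowest chow array, 18471. The average log2 fold change was -0.23 ± 0.08 (SE; adjusted p = 0.181, limma), with -0.12 and -0.18 at 3 mg/kg/day and -0.31 and -0.30 at 10 mg/kg/day, after 2 and 14 days. With the mean of its probe sets in place of the brightest, the average stood at 0.14 and the 4 groups, in the same order, at 0.21, 0.11, -0.04 and 0.29. The difference between doses, for the brightest probe set, was -0.16 ± 0.07 (SE; adjusted p = 0.376, limma).

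Cx3cl1, a chemokine anchored in the membrane of endothelium and smooth muscle that binds CX3CR1 on monocytes, lies on chromosome 8 from 94772180 to 94782427. Its signals were 1034, 782 and 724 in chow controls. They were 759, 858 and 778 at 3 mg/kg/day for 2 days and 733, 689 and 673 for 14 days. They were 767, 822 and 1015 at 10 mg/kg/day for 2 days and 690.5 and 689.6 for 14 days. The 5 arrays of the 14-day groups lay below all 6 arrays of the 2-day groups, a separation shared by 0.18% of genes tested. The log2 difference of 14 against 2 days was -0.23 ± 0.13 (SE), with an adjusted p of 0.999 in limma.

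Ordered by mean signal, Icam1 ran from chow (3890 ± 80, SD) through 3 mg/kg/day for 2 days (3339.7 ± 396), 10 mg/kg/day for 14 days (3058 ± 122) and 2 days (3056 ± 112), P465L (2945 ± 318) and 3 mg/kg/day for 14 days (2844 ± 171) to littermates (2691 ± 132). Chow stood apart from its neighbour, and each later pair of neighbours overlapped. Cxcl12 ran from chow (18891 ± 374) to 10 mg/kg/day for 2 days (15199 ± 469), and again chow alone stood apart from its neighbour in the order. Selp ran from chow (2593 ± 477) to littermates (1488 ± 316), and Vcam1 from 10 mg/kg/day for 14 days (5639.8 ± 138) to littermates (4211 ± 945), with all neighbours overlapping. Cx3cl1 had gaps at 2 places, between 3 mg/kg/day for 2 days (798 ± 52) and for 14 days (698 ± 31), and between 10 mg/kg/day for 14 days (690.0 ± 0.6) and littermates (544 ± 46).

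Read as a group against all genes, the tested members did not stand out by calls. In the rosiglitazone average, 0 of 5 were called against 0.433% of all genes, and 2 of 5, Icam1 and Cxcl12, had an unadjusted p under 0.05 against 14.2%. By their brightest probe sets all 5 had negative log2 fold changes, as did 55.0% of all genes, with a median of -0.23 beside -0.02 over all genes. With the mean of its probe sets Cxcl12 was positive, as given above. At 3 mg/kg/day 0 of 5 were called after 2 days (background 0%) and after 14 days (0%), and 1 of 5, Icam1, passed unadjusted in each, against 8.83% and 8.27%. At 10 mg/kg/day 0 of 5 were called after 2 days (background 0.505%) and after 14 days (0.271%). There 2 of 5 passed unadjusted after 2 days (15.2%) and 3 of 5 after 14 days (12.6%). Between doses 0 were called (background 0%) and 1 passed unadjusted (12.7%), and between times 0 were called (0%) and 0 passed unadjusted (4.19%).

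In P465L aortas, limma called 0 of 5 members (background 0.018%), and 1 of 5, Selp, passed unadjusted (7.43%). Selp read 2158, 1944 and 2187 in P465L and 1129.9, 1726 and 1608 in wild-type littermates. The groups did not overlap, which held in this direction for 7.35% of genes tested, and P465L stood 0.49 ± 0.20 higher on the log2 scale (SE; adjusted p = 0.646, limma). Of the weaker Selp probe sets, 1449906_at had the opposite sign, at -0.38 ± 0.29 (SE), and 1440173_x_at stood at 0.10 ± 0.35 (SE). With the mean of the Selp probe sets the log2 difference was 0.07, so its size rests on the brightest probe set. Icam1 read 3028, 2593 and 3214 in P465L and 2548, 2717 and 2808 in littermates, which overlapped, with a log2 fold change of 0.12 ± 0.11 (SE). Of the marker lists in P465L, 9 of 10 endothelial markers were lower (median -0.20), as were 7 of 8 of smooth muscle (-0.24). Also lower were 6 of 8 fibroblast (-0.09), 4 of 5 fat cell (-0.64) and 5 of 5 skeletal muscle markers (-1.30). Higher were 8 of 10 macrophage markers (0.06) and all 4 tested T and B lymphocyte markers (0.56). Of 2 tested mesothelium markers 1 was higher and 1 lower, and 0 markers of these lists were called. Endothelial markers summed to 37476 to 39457 in P465L and 38999 to 46473 in littermates. The part of these cells in the values of Selp and Icam1 was not tested.

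Vcam1 read 4016, 4774 and 4618 in P465L and 3375, 4021 and 5236 in littermates, a wider spread in the littermates than between the groups (0.10 ± 0.15, SE). Cxcl12 read 15814, 16025 and 16569 in P465L and 15495, 14239 and 18211 in littermates, and differed by 0.02 ± 0.10 (SE). Cx3cl1 read 358, 586 and 455 in P465L and 526, 510.1 and 596 in littermates (-0.21 ± 0.18, SE). For these 3 members P465L arrays overlapped their littermates. The 95% intervals of the P465L difference ran from -0.20 to 0.41 for Vcam1 and from -0.10 to 0.34 for Icam1. They ran from -0.58 to 0.15 for Cx3cl1 and from -0.18 to 0.22 for Cxcl12. For the brightest Selp probe set the interval was 0.08 to 0.91, not adjusted for the number of genes. The widths of these intervals rest on a spread estimated over all 20 arrays, not on these 6 arrays alone.

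**Figure D2:**
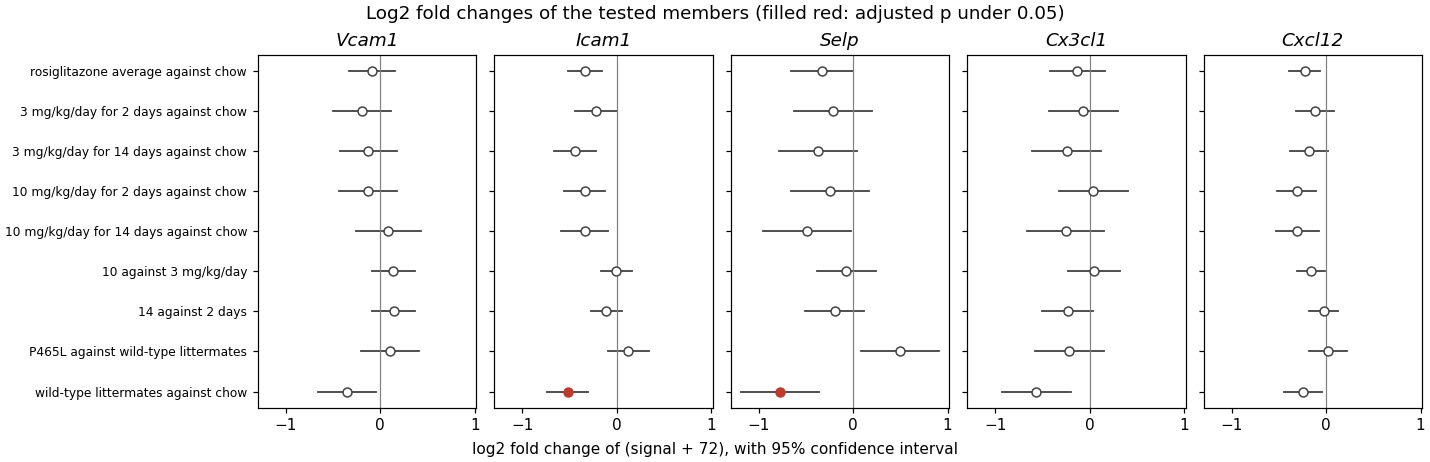
Log2 fold change of (signal + 72) for each tested member in the 9 comparisons, as points with 95% confidence intervals from limma, where filled red points have an adjusted p under 0.05. The 2 filled points are Icam1 (-0.52) and Selp (-0.78) in wild-type littermates against chow.

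The comparison in which members were called sets 2 groups of untreated mice side by side. By their brightest probe sets, wild-type littermates had lower signals than chow controls for all 5 members, with a median of -0.52 beside -0.04 over all genes. Of all genes tested, 56.0% were lower in this comparison. Over the 19 probe sets of all 10 members, 13 were lower and 6 higher. The Cxcl12 probe set 1417574_at averaged 1350 in littermates and 1148 in chow controls. With the mean of its probe sets, Cxcl12 stood at -0.02. Icam1 fell by 0.52 ± 0.11 (SE; adjusted p = 0.00538, limma), and Selp, by its brightest probe set, fell by 0.78 ± 0.20 (SE; adjusted p = 0.0242, limma). These 2 of 5 compare with 6.49% of all genes called, and 5 of 5 with an unadjusted p under 0.05 compare with 22.5%. By their brightest probe sets, Icam1, Selp, Cx3cl1 and Cxcl12 had no overlap between the 3 littermate and 3 chow arrays in this direction, which 16% of genes tested shared. On both weaker Selp probe sets littermates and chow controls overlapped. Signals of 1449906_at were 257 to 539 in littermates and 355.5 to 478 in chow controls. Those of 1440173_x_at were 38.2 to 260 and 166 to 284.

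Cx3cl1 stood at -0.56 ± 0.18 on the log2 scale (SE; adjusted p = 0.0565, limma) and Vcam1 at -0.35 ± 0.15 (SE; adjusted p = 0.151, limma). The placing of all 6 knock-in experiment arrays below all 14 of the rosiglitazone experiment, seen for Cx3cl1, held for 1.91% of genes. The colony of mice and the experiment differ together between these groups and cannot be told apart. The call for Selp did not hold without chow array A (adjusted p = 0.0826), chow array B (0.0943) or littermate array A (0.101), and with the mean of its probe sets the log2 fold change was -0.54 (adjusted p = 0.0823). Icam1 stayed called in each of these, and without littermate array C Vcam1 (adjusted p = 0.0397) and Cxcl12 (adjusted p = 0.0462) were called too.

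Several marker lists differed between littermates and chow controls. The summed signal of 10 macrophage markers ranged from 61611 to 70409 in littermates and 67967 to 84006 in chow controls, with 3 markers higher and 7 lower, of which Ctss and C1qa were called. Fat cell markers summed to 77331 to 134889 in littermates and 38369 to 70973 in chow controls, with all 5 tested ones higher and a median of 0.84. Smooth muscle markers summed to 482830 to 494273 against 392421 to 448446, and fibroblast markers to 325592 to 351442 against 269176 to 319921, each with 6 of 8 higher, and the fibroblast marker Dcn was called. Skeletal muscle markers summed to 11355 to 58726 in littermates and 1495 to 22196 in chow controls, with all 5 tested ones higher. The 8 T and B lymphocyte markers with probe sets, of which 4 passed the level, summed to 4771 to 7482 against 3181 to 4441. Endothelial markers overlapped, at 38999 to 46473 against 40635 to 49392, with 5 higher and 5 lower. No marker was listed at 0, while Myh4, Lep, Cd3e, Cd3g, Cd3d and Cd2 were below the level needed for testing. The part of these cells in the values of the members was not tested.

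The 4 members with more than 1 probe set differed between probe sets. Each probe set was tested in a fit of all 34945 probe sets with 1 symbol, in which 0.0973% were called in the rosiglitazone average, 0.00858% in P465L and 2.37% in littermates against chow. For Cxcl12, the brightest probe set, 1448823_at, stood at -0.23 ± 0.08 (log2, SE) in the rosiglitazone average, but 1417574_at stood at 0.28 ± 0.14 (SE). Signals of 1417574_at were 1069, 1169.9 and 1206 in chow controls and from 1100.3 to 1982 in treated arrays, so this probe set ran the other way on the same arrays. The lower Cxcl12 values therefore rest on 1 of its probe sets, and the third, 1439084_at, was dim, with a median signal of 127.

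Vcam1 differed between its probe sets as well. Probe set 1451314_a_at read 1158, 1226 and 1614 in littermates and 1928, 1851 and 2593 in chow controls, and fell by 0.64 ± 0.17 (SE; adjusted p = 0.0432, limma over all probe sets). That call was near the threshold and was lost without 11 of the 20 arrays in turn, with adjusted p up to 0.213 (without chow array C). Probe set 1415989_at read 2222, 2303 and 2613 in the same littermates and 1759, 1587 and 2444 in the same chow controls, which put littermates 0.31 ± 0.21 higher on the log2 scale (SE; adjusted p = 0.537, limma over all probe sets). In P465L against littermates these 2 probe sets had 0.38 ± 0.17 and -0.36 ± 0.21 (SE), again on opposite sides of 0. Cx3cl1 had 2 dim probe sets with median signals of 15.8 and 14.3, and its middle one, 1415804_at, had -0.64 ± 0.28 (SE) in the rosiglitazone average, larger than the -0.13 of the brightest, with neither called. On 1415804_at, littermates (248 to 380) and P465L (141 to 308) overlapped the treated arrays (71.8 to 424). The 14-day and 2-day arrays overlapped on it as well, so both separations of Cx3cl1 rest on its brightest probe set. Over all 19 probe sets 12 were lower and 7 higher in the rosiglitazone average.

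**Figure D3:**
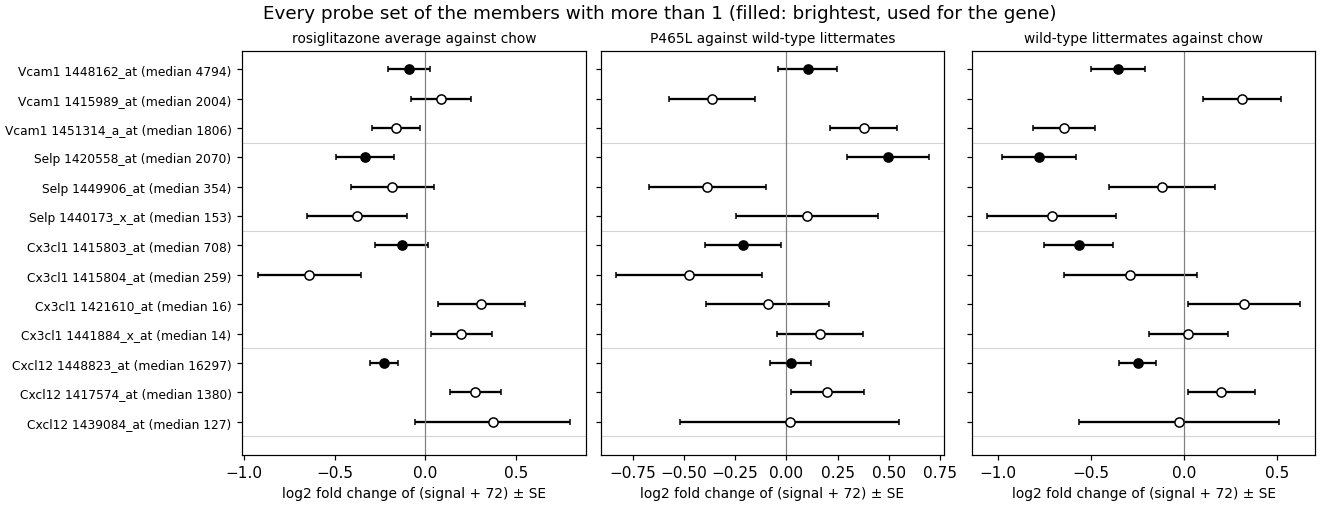
Log2 fold change of (signal + 72) for every probe set of the 4 members with more than 1, with error bars of 1 SE, in the rosiglitazone average, P465L against littermates and littermates against chow. Filled points are the brightest probe set, used for the gene, and the labels give each probe set's median signal; points of Cxcl12 and Vcam1 lie on both sides of 0 within a panel.

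The 5 members below the level for testing were read from a limma fit of all 18193 genes with no filter. In it 0 of the 5 were called in the rosiglitazone average (background 0.176%), between times (0%), in P465L (0.0165%) or in littermates against chow (2.98%). An unadjusted p under 0.05 was reached by Ccl7 in the rosiglitazone average (background 11.3%) and in littermates against chow (16.3%), by Tnf between times (4.62%) and by 0 of the 5 in P465L (6.37%). Ccl2, which draws monocytes through CCR2, lies on chromosome 11 from 82035577 to 82037452, beside Ccl7, a related chemokine, from 82045712 to 82047525. Ccl2 read 379, 268 and 433 in chow controls, from 98.9 to 425 in treated arrays, 295, 181 and 176 in littermates and 459, 171 and 168 in P465L. The treated and chow arrays overlapped, and the average log2 fold change was -0.49 ± 0.31 (SE; adjusted p = 0.600, limma).

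Ccl7 read 308, 339.8 and 169.7 in chow controls and 71.6 to 227 in treated arrays, with -0.65 ± 0.25 (SE; adjusted p = 0.316, limma). In littermates it read 158, 126 and 129, and in P465L 104, 188 and 98.7. Sele, the E-selectin made by endothelium on activation, lies on chromosome 1 from 164039614 to 164058487, beside Selp. It read 65.6, 151 and 236 in chow controls, a wider range than the 56.2 to 167 of the treated arrays, and its average log2 fold change was -0.16 ± 0.24 (SE).

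The 2 cytokines were dimmer still. Il6, on chromosome 5 from 30013114 to 30019975, never exceeded a signal of 119 on any array and read 8.4, 34.8 and 3.5 in chow controls. Tnf, on chromosome 17 from 35199367 to 35202007, read 64.9, 61 and 50.9 in chow controls, 23.4, 21.1 and 23.9 in littermates and 29.2, 36.6 and 30.7 in P465L. At 14 days its signals were 58.8, 57.7 and 269 at 3 mg/kg/day and 116 and 190.4 at 10 mg/kg/day, while the 6 arrays of the 2-day groups ranged from 23.6 to 52.9. All 14-day arrays thus lay above all 2-day arrays, which held for 0.137% of all genes, and the log2 difference was 0.88 ± 0.23 (SE), with an adjusted p of 0.848 in limma. Signals this low are near the floor of the method, where the offset of 72 governs the value.

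**Figure D4:**
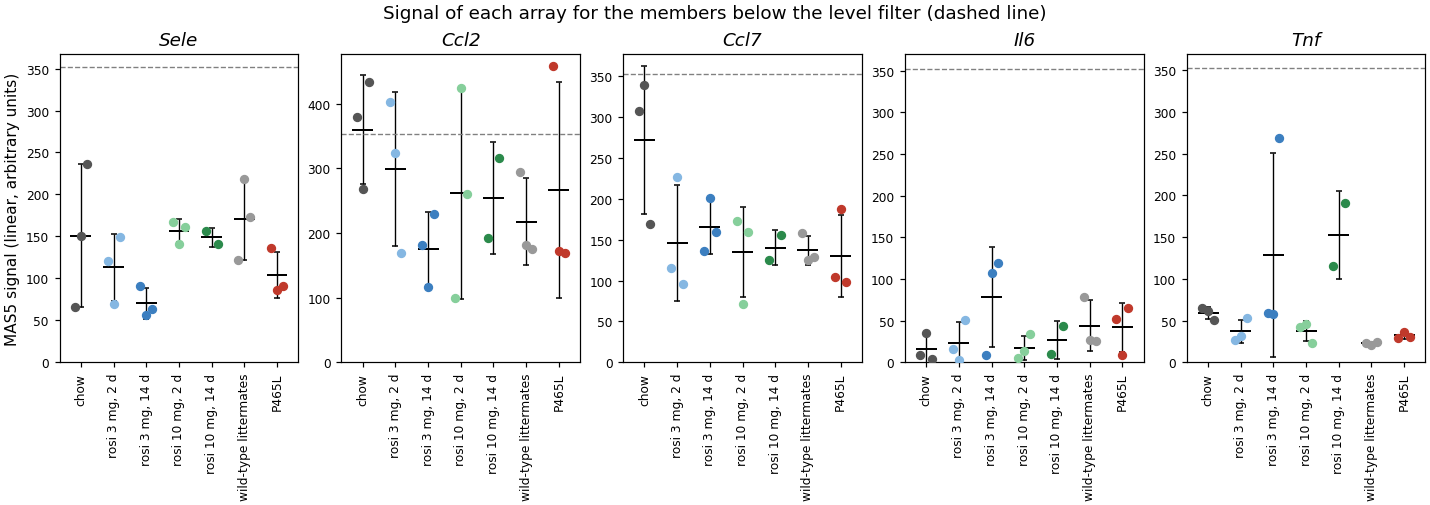
MAS5 signal (linear, arbitrary units) of each array for the 5 members below the level for testing, by group, with a bar for the mean, error bars of 1 SD (n = 2 or 3) and a dashed line at the level for testing, 352. Nearly all points lie below the line, the exceptions being some arrays of Ccl2, and the 5 Tnf points of the 14-day groups lie above those of the 2-day groups.

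Partners of these genes were read from lists of the adhesion, chemokine and NF-kB pathways. Of 15 tested genes of endothelial adhesion and junctions, 4 were higher and 11 lower in the rosiglitazone average, with a median of -0.14 beside -0.02 over all genes. Pecam1 was the 1 called, beside 0.433% of all genes, and 5 had an unadjusted p under 0.05, beside 14.2%. At 10 mg/kg/day for 2 days 2 of the 15 were called, beside 0.505% of all genes, and 5 passed unadjusted, beside 15.2%. There Pecam1 fell by 0.67 ± 0.13 (SE; adjusted p = 0.0326, limma), and Cd99, a surface protein used by leukocytes to cross the endothelium, fell by 1.11 ± 0.19 (SE; adjusted p = 0.0134, limma). The call for Pecam1 was lost without chow array A (0.146), B (0.0766) or C (0.0525) or treated array B (0.0731) or C (0.148), with this experiment's arrays alone (0.0598) and without the variance trend (0.0595). That for Cd99 was lost without chow array A (0.125) or treated array B (0.0731) or C (0.0585), all given as adjusted p. Cd99 ranged from 12405 to 16419 in chow controls and from 5881 to 7191 at that dose and time, and from 6590.0 to 10965 in untreated littermates, where it also fell (by 0.76, adjusted p = 0.0192), a call lost without chow array A (0.0869) or littermate array B (0.0840) or C (0.0793).

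Among 12 tested leukocyte integrins and selectin ligands, 9 were lower in the average, with a median of -0.26. Limma called 0 of them, and 4 had an unadjusted p under 0.05, beside 14.2% of all genes. The largest were Itgb2, the beta chain of the Icam1-binding integrins, at -0.51 ± 0.17 (SE; adjusted p = 0.174), and Selplg, the P-selectin ligand, at -0.33 ± 0.16 (SE; adjusted p = 0.364), both in limma. Macrophage markers moved beside this list, with 9 of 10 lower and a median of -0.16. The summed signal of those markers was 59679 to 77375 over the treated arrays and 67967 to 84006 in chow controls, and its part in these values was not tested.

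Other chemokines showed no shared direction with rosiglitazone, with 7 of 15 higher, 0 called and a median of -0.01. An unadjusted p under 0.05 was reached by 4 of them, beside 14.2% of all genes. Ccl12, a monocyte chemokine of the Ccl2 cluster, stood at -0.84 ± 0.31 (SE; adjusted p = 0.220, limma) and Ccl5 at -0.66 ± 0.33 (SE; adjusted p = 0.368, limma). In P465L 12 of the 15 were higher than in littermates, with a median of 0.22 beside 0.01 over all genes and 0 called. There 2 had an unadjusted p under 0.05, beside 7.43% of all genes. Ccl5, which draws T cells, had 0.90 ± 0.41 (SE; adjusted p = 0.661, limma) and Cxcl13, which draws B cells, 0.54 ± 0.31 (SE; adjusted p = 0.680, limma). The 8 T and B lymphocyte markers with probe sets, of which 4 passed the level, summed to 6487 to 15476 in P465L and 4771 to 7482 in littermates. Their part in these values was not tested.

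Receptors and signalling genes had few members with sizeable values. Of 7 tested chemokine receptors, 3 were higher and 4 lower in the rosiglitazone average, led by Ccr6 (0.49) and Ccr1 (-0.34). Of 15 genes of TNF and IL-6 signalling, 4 were higher and 11 lower, with Il6ra, the IL-6 receptor, at 0.83 ± 0.31 (SE; adjusted p = 0.226, limma) and Tradd, the TNF receptor adaptor, at -0.30. Of 14 NF-kB pathway genes, 5 were higher and 9 lower, with Relb at -0.43 and Map3k14 at 0.42. None of these receptors or signalling genes was called. In the 3 lists 2 of 7, 4 of 15 and 1 of 14 had an unadjusted p under 0.05, beside 14.2% of all genes. In P465L none of the genes of the 6 lists was called. There 0 to 2 in each list had an unadjusted p under 0.05, beside 7.43% of all genes. The 2 largest differences in each of the 5 lists other than chemokines were Socs3, an inhibitor of cytokine signalling, at 0.66 ± 0.21 (SE; adjusted p = 0.505, limma), Tank at 0.62, Cd24a at -0.53, Alcam and Il6ra at 0.43 each, Itga4 at 0.36, Ccrl2 at -0.34, Emcn at -0.32, Birc2 at 0.27 and Ccr1 at 0.23.

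In littermates against chow, 5 of 78 tested partners were called (6.41%), beside 6.49% of all genes. Cd99 is named above, and the other 4 were chosen after their values were seen. Itga5, a chain of the fibronectin receptor, Ccl8, a monocyte chemokine, and Tnfrsf1a, the main TNF receptor, fell, and Itga9 rose. Tnfrsf1a was also among the genes whose pattern over the 20 arrays was nearest to that of Icam1.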

How the data were processed

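Total RNA of pooled aortas was biotin-labelled and hybridized to Affymetrix arrays, per the labels. The deposited intensity values are linear signals that the authors made with MAS5, per the submitters' processing notes. The MAS5 version is not given in the sources used here. Each array proved to be scaled to a mean of 1500 after trimming 2% at either end, and array medians ran from 321 to 451. Of 45101 probe sets, 34945 carried 1 symbol, 932 several and 9160 none, and 34741 of the first were found by Entrez ID in a GRCm38.p6 gene table.

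Signals were analysed as log2(signal + 72) in limma 3.58.1 (R 4.3.3), with 1 mean for each of 7 groups over 20 arrays and a variance trend, and Benjamini-Hochberg adjustment over genes. The fit was tested on simulated data. Members, partner lists and markers were chosen with earlier results of these data known. The text names all 10 members, partners called in a rosiglitazone group or in P465L, the 2 partners per list with the largest absolute fold change in the rosiglitazone average and in P465L, and the 3 nearest genes of each tested member. Nothing states that array letters pair arrays.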

Additional observations from a re-analysis of the deposited data

Results flagged for a closer look

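Vcam1 stood out for the direction of single arrays at 10 mg/kg/day. All 3 arrays at 2 days lay below the mean of the chow controls, by log2 differences from -0.21 to -0.06, and both arrays at 14 days lay above it, by 0.06 to 0.11. The 2 groups were 0.22 apart on the log2 scale. This difference between the times at 1 dose was not tested by itself, and the chow controls spread more widely than it, with signals from 4814 to 6222.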

How the results depend on the processing

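Alternatives were offsets of 16 and 200, no filter or one at the 25th percentile, the mean of a gene's probe sets, quantile normalization, array weights, each experiment's own arrays, no variance trend, the array letter as a replicate block, and leaving out each array. For littermates against chow they were applied to single members after the data had been seen, as for Pecam1, Cd99 and the Vcam1 probe set called. Members called in the rosiglitazone average numbered 0 to 1 when 1 array was left out and 1 with array weights (Icam1), which called 2 at 10 mg/kg/day for 2 days (Icam1 and Cxcl12, adjusted p = 0.0355 and 0.0346). In littermates against chow the number was 1 to 4 when 1 array was left out and 1 with the mean of probe sets, and Cx3cl1 was called without the variance trend (adjusted p = 0.0356) and without P465L array A (0.0480). Over the settings that kept every array, the adjusted p of Icam1 in the rosiglitazone average ran from 0.0188 to 0.124. The mean of probe sets turned Cxcl12 above 0 in the rosiglitazone average (0.14), at 3 mg/kg/day for 2 days (0.21) and 14 days (0.11) and at 10 mg/kg/day for 14 days (0.29), but not at 10 mg/kg/day for 2 days (-0.04). Leaving out 1 array turned 4 uncalled values in the rosiglitazone average and in P465L: the rosiglitazone average of Vcam1 ranged from -0.161 to 0.0213 (turned without chow array C) and of Cx3cl1 from -0.226 to 0.0106 (chow array A), and P465L against littermates ranged from -0.0414 to 0.270 for Vcam1 (littermate array A) and from -0.0581 to 0.119 for Cxcl12 (littermate array B). It turned 6 more uncalled values in single treated groups and between doses and times: Cx3cl1 at 3 mg/kg/day for 2 days (-0.161 to 0.0757) and 10 mg/kg/day for 2 days (-0.0706 to 0.180), Icam1 (-0.0497 to 0.0342), Selp (-0.223 to 0.0016) and Cx3cl1 (-0.0101 to 0.0832) between doses, and Cxcl12 between times (-0.0621 to 0.0168). The cause was not tested. Genes called in the rosiglitazone average over all 11081 numbered 1 to 83 when 1 array was left out and 28 to 260 otherwise, and in littermates against chow 279 to 906 and 449 to 1036. With the replicate block 2 members stayed called in littermates against chow (Icam1 adjusted p = 0.00592, Selp 0.0175) and it changed no other member's call, but letters are not stated to pair arrays, and 57 same-letter pairs had a median correlation of deviations of 0.02, from -0.30 to 0.36. With 2 or 3 arrays a group and signals of Tnf and Il6 near the floor, small changes of these genes could not be resolved.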

Other observations

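For each tested member, the 3 other genes whose log2 values followed it most closely over the 20 arrays were listed among 11081 genes. These are descriptions, since the arrays share groups and scaling, and such a search returns high values by its nature. For Icam1 they were Enpp5, Ube2e2 and Tnfrsf1a, with Pearson r of 0.79, 0.78 and 0.78, and after group means were removed Tnfrsf1a, the TNF receptor, had 0.54. For Cx3cl1 they were Stk25, Clmp and Spon1, with 0.89, 0.88 and 0.88. Clmp, an adhesion protein of cell junctions, had 0.68 within groups. For Cxcl12 they were Abhd14b, Snapc1 and Morc2a, with 0.88, 0.83 and 0.79. For Selp they were Col23a1, a membrane collagen, Foxm1 and Hdac11, with 0.74, 0.70 and 0.68. For Vcam1 they were Zfp869, Msantd4 and Lsm14a, with 0.80, 0.79 and 0.79. No other tested member was among the 3 nearest of any member, and the closest pair of members was Icam1 and Cxcl12 at 0.63.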
